A study of Mus musculus with 5 samples.

Results

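The mesothelial surface markers described here are Msln, Upk3b, Upk1b, Lrrn4, Gpm6a and Prg4. They are 6 of the 23857 genes listed in a table of TPM (transcript abundance per unit of transcript length, scaled so that every library has an equal total). They were chosen by name as markers of mesothelium, not by their values in these libraries, although earlier results of the same data were known. All 6 were listed, and all 6 passed the filter on low values, which asked for 1 TPM or more in 2 or more libraries. RNA was sequenced in bulk from YFP+ stromal cells of the oviduct, or fallopian tube, in 5 young adult females, 1 library per mouse. Control mice 2 and 3 had the alleles Pdgfra-Cre and R26Y, the latter a Rosa26-YFP reporter. The 3 mice of the other group, mice 1, 2 and 3, carried Pdgfra-Cre, R26Y and Esr1(fl/fl), floxed alleles of the gene of estrogen receptor alpha. Both groups thus carry the recombinase and the reporter, and the floxed Esr1 alleles are what the labels give as the difference. The recombinase is under the control of Pdgfra sequence, and Pdgfra is a gene of mesenchymal cells. A recombined reporter stays on in the cell and its descendants, so YFP marks a history of recombinase activity and not present Pdgfra transcription.

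The mesothelium is a single sheet of flattened cells that lines the body cavities and forms the outer, serosal surface of organs such as the oviduct. Its cells derive from mesoderm, lie on a basement membrane over a thin layer of stroma, and combine epithelial features such as keratins and junctions with mesenchymal ones. They secrete a lubricating fluid that lets organs slide past each other. None of the 6 genes is exclusive to mesothelium: uroplakins are best known from the bladder lining, Gpm6a from neurons and Prg4 from joint lining.

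The TPM of Esr1 was set beside the label knockout first. Control mice 2 and 3 had 83.3 and 77.6 TPM of Esr1, against 28.9, 85.0 and 170 TPM for the libraries labelled knockout mice 1, 2 and 3. Only mouse 1 had less than both controls, so every direction given here refers to the libraries by their label. A TPM per gene does not separate the floxed part of Esr1 from the rest of its transcript. These values therefore cannot show whether the alleles recombined. Pdgfra was between 165 and 298 TPM in all 5 libraries, with overlapping groups. Markers of other cell types were detected in all libraries. The summed TPM of 14 oviduct epithelial markers was 3164 and 3447 in the controls and 2241, 12285 and 13432 in the libraries labelled knockout mice 1, 2 and 3. Between 15841 and 19432 genes reached 1 TPM per library, and the number of reads behind each value is unknown, since TPM does not keep it.

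By RefSeq on GRCm38.p6, the assembly whose coordinates mm10 shares, the 6 protein-coding genes lie on 6 chromosomes. Msln spans bases 25748613 to 25754378 of chromosome 17 and Upk1b bases 38773182 to 38800203 of chromosome 16, both on the minus strand. Upk3b spans bases 136038496 to 136044993 of chromosome 5 on the plus strand, and Gpm6a bases 54779434 to 55060878 of chromosome 8, also on the plus strand. Lrrn4 spans bases 132866686 to 132894010 of chromosome 2 and Prg4 bases 150449412 to 150466221 of chromosome 1, both on the minus strand. The genes are therefore not neighbours. Their levels come from the same libraries and are not independent of each other.

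Promoter windows in the RefSeq table were found for 3 of the 6. The 250 bases before the start are shown because the floxed gene encodes a DNA-binding receptor. Whether that receptor acts on these genes was not tested. The windows are chr5:136038246-136038495 (plus strand) for Upk3b, chr2:132880863-132881112 (minus strand) for Lrrn4 and chr8:54779184-54779433 (plus strand) for Gpm6a, the first of 2 windows listed for that gene. Each window ends at a transcript start of that table, which is not always the outer end of the gene. For Lrrn4 it lies 13148 bases inside the RefSeq span given above, and GENCODE starts the gene 29 bases before it, inside the window. For Gpm6a the first window ends at the outer RefSeq start, while GENCODE starts the gene 115 bases after the start that belongs to the second window. Capitals mark the half-site of the estrogen response element, GGTCA or TGACC, and the TEAD core, GGAATG or CATTCC.
Upk3b: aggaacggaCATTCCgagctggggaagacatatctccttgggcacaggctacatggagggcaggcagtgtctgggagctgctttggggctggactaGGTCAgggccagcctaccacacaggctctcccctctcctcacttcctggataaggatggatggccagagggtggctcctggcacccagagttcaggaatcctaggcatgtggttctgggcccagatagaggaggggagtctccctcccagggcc
Lrrn4: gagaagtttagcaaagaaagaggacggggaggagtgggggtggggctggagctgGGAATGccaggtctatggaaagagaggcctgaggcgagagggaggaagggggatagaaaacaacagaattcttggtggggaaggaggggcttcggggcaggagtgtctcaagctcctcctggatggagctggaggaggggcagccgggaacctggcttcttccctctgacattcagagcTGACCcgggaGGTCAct
Gpm6a: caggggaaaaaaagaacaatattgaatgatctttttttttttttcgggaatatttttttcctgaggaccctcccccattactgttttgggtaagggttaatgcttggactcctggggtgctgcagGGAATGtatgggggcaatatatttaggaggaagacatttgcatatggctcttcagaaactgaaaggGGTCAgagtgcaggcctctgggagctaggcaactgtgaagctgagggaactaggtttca
The whole palindromic element, GGTCANNNTGACC, was in none of these windows and in 0.0639% of the 32851 windows of 250 bases in the table. A half-site on either strand began 154 bases before the start of Upk3b, 59 bases before that of Gpm6a, and 17 and 7 bases before the internal start of Lrrn4, which is within the gene as GENCODE draws it. Half-sites were in 35.2% of all windows. The TEAD core, the letters bound by the transcription factors of the Hippo pathway, began 241, 196 and 125 bases before the starts of Upk3b, Lrrn4 and Gpm6a, and was in 12.6% of all windows. The second Gpm6a window held neither. Both strands were also searched for common promoter elements. The GC box, written GGGCGG, the letters CCAAT and the AP-1 site, written TGANTCA, were found in none of the 4 member windows, nor was the EGR and WT1 site, written GCGTGGGCG. The TATA box, written TATAAA, matched the second Gpm6a window only. The letters of the GC box, CCAAT, AP-1, EGR and WT1, and TATA elements were in 32.7%, 33.8%, 6.75%, 0.536% and 12.4% of all windows, in that order. The TEAD core was picked for display after a search of several motifs had shown its matches in these windows. A match is a string of letters, and binding was not measured.

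All 6 genes had lower TPM in each of the 3 libraries labelled knockout than in either control. The group means differed by 1.84-fold for Gpm6a to 2.79-fold for Msln, and the median log2 fold change of the 6 was -1.15 against -0.022 over all 19292 genes tested. Groups that did not overlap, with the lower values under the knockout label, were found for 21.9% of all genes tested. None of the 6 passed an adjusted p of 0.05 in the fit to all 5 libraries (limma, Benjamini-Hochberg over all genes), where 0.0156% of all genes passed as lower. All 6 had an unadjusted p under 0.05, as did 9.87% of all genes in the same direction. The adjusted p ran from 0.0978 for Prg4 to 0.273 for Gpm6a (limma). In bulk RNA, fewer mesothelial cells in the sorted fraction and less of these RNAs per cell cannot be told apart.

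**Figure D1:**
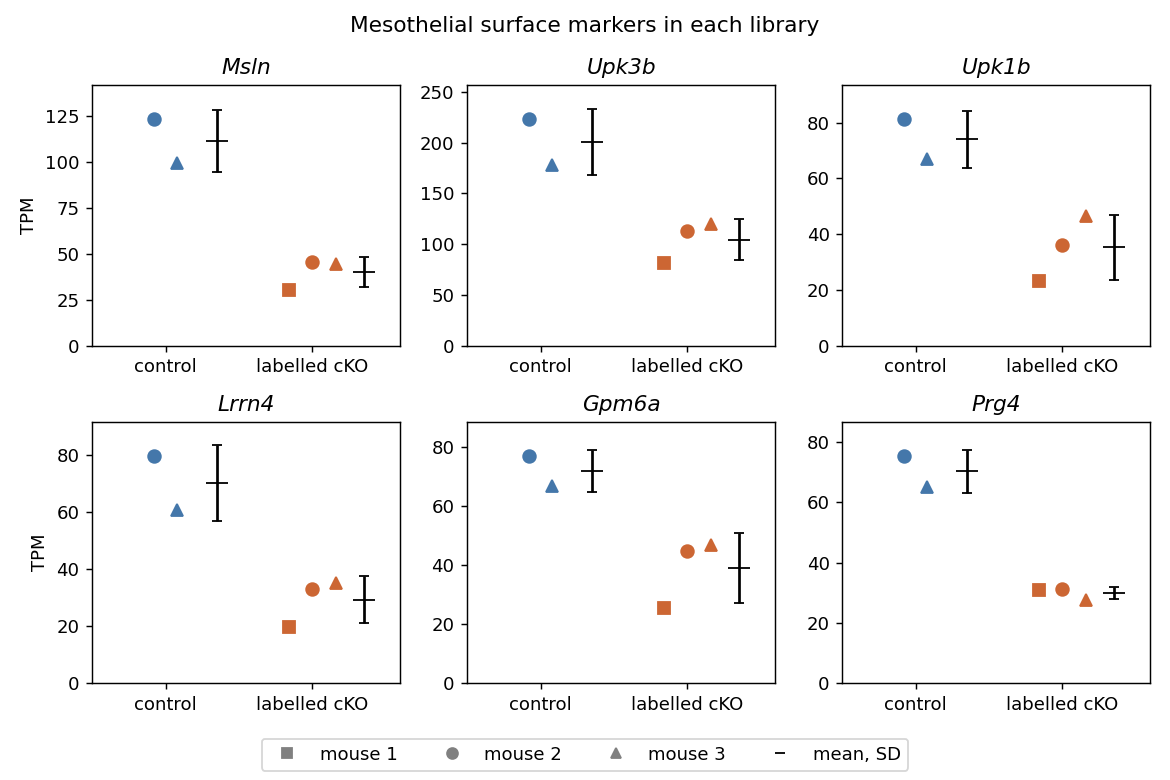
TPM (vertical axis, from 0, scaled separately per gene) of the 6 mesothelial surface markers in control libraries (blue) and libraries labelled Esr1 conditional knockout (orange, "labelled cKO"). Each point is 1 mouse, its shape gives the mouse number, and the black bar gives the mean and SD of the group. In each panel the 3 orange points lie below both blue points.

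Msln encodes mesothelin, a glycoprotein held at the cell surface by a lipid anchor, which binds the mucin MUC16. Its TPM was 123 and 99.6 in control mice 2 and 3 and 30.4, 45.2 and 44.4 in the libraries labelled knockout mice 1, 2 and 3. Both controls were above all 3 of the other libraries, and mouse 1 was the lowest. Group means of 111 ± 16.8 TPM (SD, n = 2) and 40.0 ± 8.31 TPM (SD, n = 3) gave a log2 fold change of -1.47, with a standard error of 0.23 and a 95% interval from -2.00 to -0.93 (limma, adjusted p 0.117), the largest difference among the 6.

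Uroplakins are membrane proteins that assemble into plaques at the apical surface of urothelium, and Upk3b is often used as a mesothelial marker. It was the most abundant of the 6 in all 5 libraries. Controls 2 and 3 measured 223 and 178 TPM, while mice 1, 2 and 3 of the group labelled knockout measured 81.1, 113 and 119 TPM, again below both. Means for Upk3b were 201 ± 32.2 TPM (SD, n = 2) for controls and 104 ± 20.4 TPM (SD, n = 3). Its log2 fold change came to -0.95, with a standard error of 0.22 and a 95% interval from -1.47 to -0.42 (limma, adjusted p 0.197).

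Upk1b encodes a tetraspanin, the kind of 4-pass membrane protein with which UPK3 proteins pair. Its TPM was 81.4 and 66.9 in the controls and 23.0, 36.2 and 46.4 in the libraries labelled knockout mice 1, 2 and 3. The values of the latter group spread more than those of any other member relative to their mean, 35.2 ± 11.7 TPM (SD, n = 3), and mouse 3 stood closest to the controls. The log2 fold change of Upk1b came to -1.10, with a standard error of 0.29 and a 95% interval from -1.80 to -0.40 (limma, adjusted p 0.220).

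Lrrn4 encodes a membrane protein with leucine-rich repeats, first described in neurons. Its TPM was 79.5 and 60.8 in control mice 2 and 3, compared with 19.7, 32.9 and 35.0 for mice 1, 2 and 3 labelled knockout. In mouse 1 it was the lowest of all member values. The controls averaged 70.1 ± 13.2 TPM (SD, n = 2) and the others 29.2 ± 8.29 TPM (SD, n = 3), a difference of -1.26 on the log2 scale with a standard error of 0.28 and a 95% interval from -1.92 to -0.60 (limma, adjusted p 0.192).

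Gpm6a encodes a membrane glycoprotein of the proteolipid family that takes part in the outgrowth of neuronal processes. Its values were 76.8 and 66.7 TPM in the controls and 25.4, 44.9 and 46.6 TPM in the libraries labelled knockout mice 1, 2 and 3. Mice 2 and 3 stood close to each other and mouse 1 below them. This gene had the smallest difference of the 6, its log2 fold change being -0.91 with a standard error of 0.28 and a 95% interval from -1.58 to -0.24 (limma, adjusted p 0.273).

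Prg4 encodes lubricin, a secreted mucin-like proteoglycan that lubricates surfaces, so it marks the lining without being held in its membrane. Controls 2 and 3 had 75.3 and 65.3 TPM, and the libraries labelled knockout mice 1, 2 and 3 had 30.9, 31.1 and 27.5 TPM. The 3 latter libraries lay within a narrow band, 29.8 ± 1.98 TPM (SD, n = 3), and Prg4 was the only member whose lowest value was in mouse 3 and not in mouse 1. Its log2 fold change came to -1.21 with the smallest standard error of the 6, 0.16, and a 95% interval from -1.60 to -0.82 (limma, adjusted p 0.0978).

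With 10 ways to assign 5 libraries to the groups, a two-sided exact permutation test cannot go below p = 0.1 in this design. It gave p = 0.1 for Msln, Upk3b, Lrrn4, Gpm6a and Prg4 and an exact p = 0.2 for Upk1b.

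The library labelled knockout mouse 1 had the lowest value for 5 of the 6 members, all but Prg4. Without it, all 6 members had an adjusted p under 0.05 (limma, 19106 genes tested), in a fit where 2.63% of all genes passed as lower and 5.35% as higher. The log2 fold changes were then -1.29 for Msln, -1.23 for Prg4, -1.01 for Lrrn4, -0.83 for Upk1b, -0.78 for Upk3b and -0.63 for Gpm6a, with adjusted p from 0.0140 for Msln to 0.0426 for Upk1b (limma). The differences were thus smaller without mouse 1 for 5 of the 6 and slightly larger for Prg4. Mouse 1 was also the only library labelled knockout with less Esr1 than both controls, 28.9 TPM against 83.3 and 77.6 TPM. Mice 2 and 3, which remained, had summed epithelial markers of 12285 and 13432 TPM, against 3164 and 3447 TPM in the controls. Whether either bears on this fit was not tested. Without the library labelled knockout mouse 2 or mouse 3, or without either control, 0 of the 6 passed (limma). The direction was the same for all 6 in each of these fits. With the mouse number as a replicate block all 6 passed, where 3.59% of all genes passed as lower. Mouse 1 has no partner in that block, so its fold changes equal those without mouse 1. For every gene, the block and the fit without mouse 1 are therefore not separate checks. With library weights 5 of the 6 passed, where 2.05% of all genes passed as lower.

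**Figure D2:**
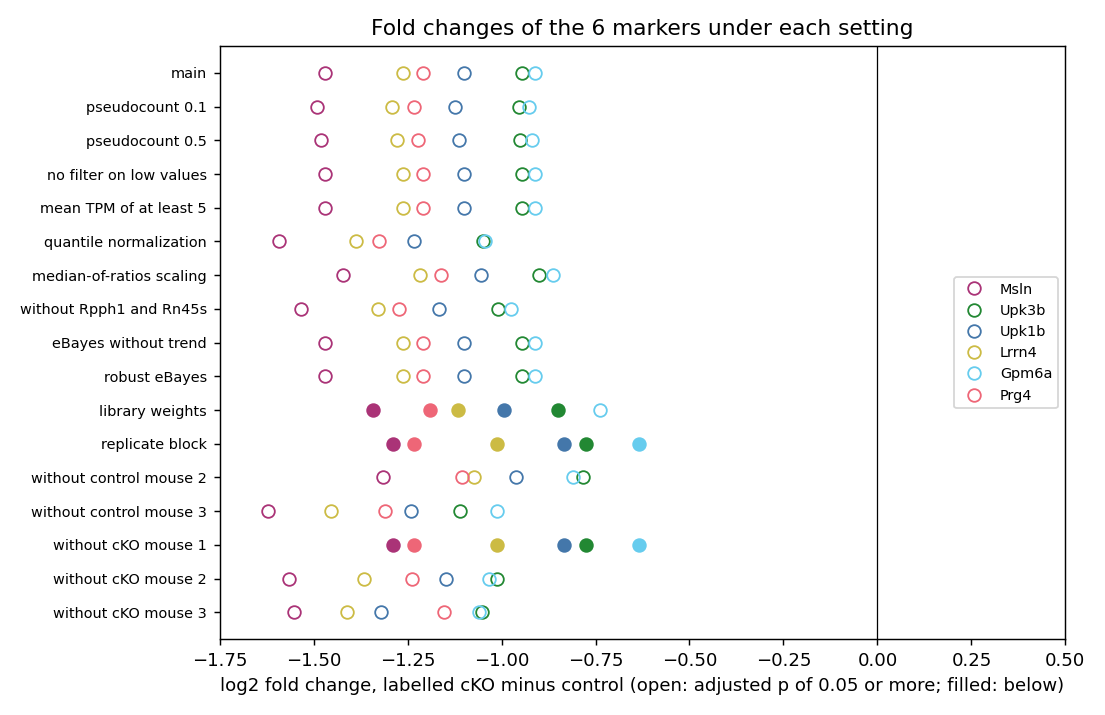
Log2 fold change (horizontal axis, libraries labelled knockout minus controls) of each of the 6 markers in the fit reported and under 16 other settings (vertical axis), coloured by gene. Filled circles have an adjusted p under 0.05 and open circles do not. All points lie left of 0, between -1.62 and -0.63, and filled circles occur with library weights, with the replicate block and without the library labelled knockout mouse 1.

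Summed over the 6 genes, the controls had 660 and 537 TPM and the libraries labelled knockout mice 1, 2 and 3 had 211, 303 and 319 TPM. Their mean sum was 598 ± 86.8 TPM (SD, n = 2) in the controls and 278 ± 58.7 TPM (SD, n = 3) under the knockout label. Mouse 1 thus stood at 35.2% of the control mean and mice 2 and 3 at 50.6% and 53.4%. Against the 8 stromal markers, whose own sum was 23681 and 19141 TPM in the controls and 16205, 12711 and 14694 TPM in the other group, the members' sum was 2.79% and 2.81% in the controls. It was 1.30%, 2.38% and 2.17% in the libraries labelled knockout mice 1, 2 and 3. The gap between the groups was therefore much narrower in mice 2 and 3 on that scale than in TPM. Most of the stromal sum came from Dcn, Col1a1 and other matrix genes. Against Pdgfra alone, the members' sum was 2.93 and 2.86 times its TPM in the controls and 0.707, 1.31 and 1.94 times in the libraries labelled knockout mice 1, 2 and 3.

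By group mean, Upk3b was highest and Msln second under both labels, and Prg4 and Lrrn4 were the lowest 2. Upk1b and Gpm6a changed places between them, with means of 74.1 and 71.8 TPM in the controls and 35.2 and 39.0 TPM in the other group, gaps smaller than the SD of either group for either gene. In both controls Upk3b was highest and Msln second, while Upk1b, Lrrn4, Gpm6a and Prg4 lay within 75.3 to 81.4 TPM in mouse 2 and 60.8 to 66.9 TPM in mouse 3. Those 4 neighbours in the order differed by less than the SD between the controls of Lrrn4, 13.2 TPM. In the libraries labelled knockout, Upk3b was highest in each, and Msln stood close to other members. In mouse 1 Msln had 30.4 TPM beside 30.9 TPM of Prg4 and above 25.4 TPM of Gpm6a, and in mice 2 and 3 it had 45.2 and 44.4 TPM beside 44.9 and 46.6 TPM of Gpm6a. Of the 15 ratios between members, 2 are given, chosen after their values were seen and without a test. The ratio of Msln to Upk3b was 0.552 and 0.560 in control mice 2 and 3 and 0.375, 0.402 and 0.372 in the libraries labelled knockout mice 1, 2 and 3. The ratio of Lrrn4 to Gpm6a was 1.03 and 0.911 in the controls and 0.778, 0.733 and 0.752 in the other group. Profiles centred on each gene's mean differed least between Upk1b and Lrrn4, with a root mean square difference over the 5 libraries of 0.12 on the log2 scale, and most between Gpm6a and Prg4, at 0.37. Prg4 was part of the 2 most unlike pairs, Gpm6a with Prg4 and Upk1b with Prg4, at 0.37 and 0.36.

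Other genes known from mesothelium were compared next, from a list of 16 that holds none of the 6. Muc16 was not analysed here, and 15 were tested. Of these, 10 had a negative and 5 a positive log2 fold change, with a median of -0.40, and 0 passed the adjusted threshold in either direction (limma; 0.0104% of all genes passed as higher). At an unadjusted p under 0.05 there were 7 lower and 2 higher (limma), where the shares of all genes tested were 9.87% and 3.7%. In 8 of the 15 the groups did not overlap with the lower values under the knockout label, and in 3 with the higher values. The shares of all genes tested in these positions were 21.9% and 11.9%. Without the library labelled knockout mouse 1, 5 passed as lower and 2 as higher (limma), as did 2.63% and 5.35% of all genes. With library weights these were 3 and 1, where 396 and 260 of all 19292 genes passed as lower and higher. With the block they were 6 and 3, where 693 and 1165 of all 19292 genes did. The list was thus divided, unlike the 6 members, which all lay on the same side.

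Bnc1, a zinc-finger transcription factor of mesothelium and other surface epithelia, had 22.1 and 15.1 TPM in control mice 2 and 3, and 6.82, 10.6 and 11.0 TPM under the knockout label in mice 1, 2 and 3 (log2 fold change -0.91, standard error 0.28, limma adjusted p 0.267). Wt1, a transcription factor of mesothelium that is also made in gonadal and Müllerian stroma, lay on the other side. Control levels of Wt1 were 141 and 146 TPM, below the 175, 218 and 223 TPM of mice 1, 2 and 3 labelled knockout (log2 fold change 0.50, standard error 0.18, limma adjusted p 0.317). Without mouse 1 it passed as higher, with a log2 fold change of 0.61 (limma, adjusted p 0.0326), and also with the block (limma, adjusted p 0.0311). Pdpn, the gene of podoplanin, a surface mucin of mesothelium, lymphatic endothelium and many fibroblasts, had control values of 103 and 82.4 TPM and 104, 149 and 230 TPM in the other libraries (log2 fold change 0.73, standard error 0.33, limma adjusted p 0.385), and passed as higher with the block alone (1.00, limma adjusted p 0.0409). Calb2, the gene of the calcium-binding protein calretinin, was low, with 1.83 and 4.23 TPM for the controls, 14.3, 2.86 and 0.60 TPM for mice 1, 2 and 3 labelled knockout, and overlapping groups. The standard error, 0.87, exceeded the log2 fold change of 0.24 (limma, adjusted p 0.903), which became -0.63 without mouse 1, -0.20 without control mouse 2 and -0.077 with library weights. C3, the most abundant gene of the list and a complement component made by many stromal cells, had overlapping groups with means of 3624 ± 267 TPM (SD, n = 2) for controls and 3794 ± 1482 TPM (SD, n = 3). Its log2 fold change was 0.0010 (limma, adjusted p 0.999), and the sign changed between settings.

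Of the remaining genes of this list, Cldn15 and Myrf were singled out after their values were seen. Cldn15, a claudin of tight junctions, had 80.9 and 65.8 TPM in control mice 2 and 3, against 26.8, 30.6 and 32.6 TPM in mice 1, 2 and 3 labelled knockout. Myrf, a membrane-bound transcription factor, had 77.7 and 53.6 TPM against 30.0, 33.7 and 32.8 TPM. Their log2 fold changes, -1.26 and -0.98, lay within the range of the 6 members and did not pass (limma, adjusted p 0.111 and 0.172). Both passed without mouse 1 (limma, adjusted p 0.0167 and 0.0424), with library weights (limma, adjusted p 0.0170 and 0.0457) and with the block (limma, adjusted p 0.0108 and 0.0233). Gata4, a transcription factor of gonadal and coelomic mesoderm also named after its values were seen, had the largest positive value of the list. Its control values were 9.20 and 11.4 TPM, and those of mice 1, 2 and 3 labelled knockout 16.5, 41.3 and 29.4 TPM, a log2 fold change of 1.33 (limma, adjusted p 0.228). Under the same 3 settings its limma adjusted p was 0.0174, 0.0313 and 0.0113.

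**Figure D3:**
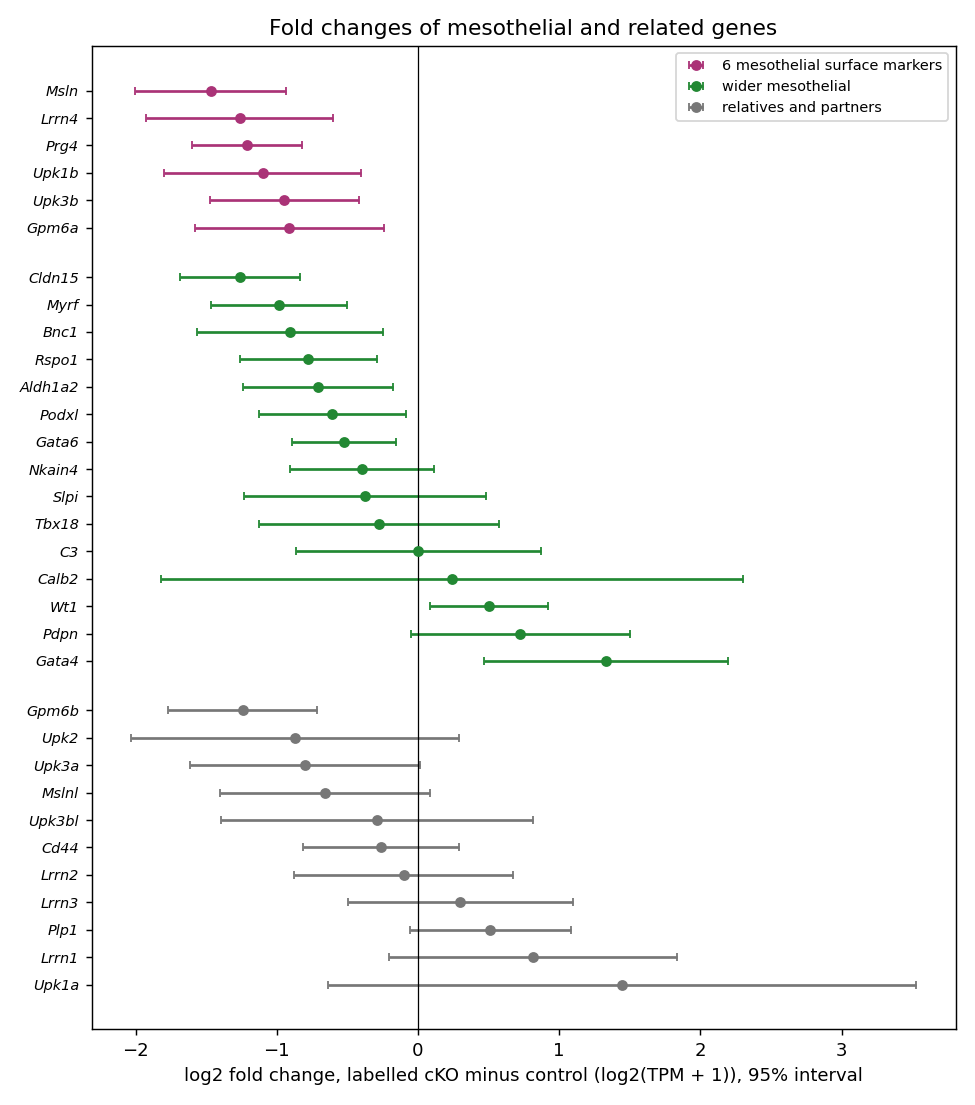
Log2 fold change (horizontal axis, libraries labelled knockout minus controls, on the log2(TPM + 1) scale) with its 95% interval from limma for the 6 mesothelial surface markers (purple), 15 further mesothelial genes (green) and 11 relatives and partners (grey). The intervals of all 6 markers lie below 0, while the other lists hold genes on both sides. The intervals are not adjusted for the number of genes, and none of the genes shown had an adjusted p under 0.05.

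The log2 fold changes of relatives and binding partners of the members lay on both sides of 0. Of 11 tested, 7 had a negative and 4 a positive value, and 0 passed (limma). Their median was -0.26, which was 0.058 without the library labelled knockout mouse 3. In 5 of the 11 the groups did not overlap with the lower values under the knockout label, and in 1 with the higher values. Over all genes tested those shares were 21.9% and 11.9%. On the lower side 1 had an unadjusted p under 0.05, as did 9.87% of all genes (limma). Gpm6b, the closest relative of Gpm6a, was the one with the low p, having 100.1 and 71.3 TPM in control mice 2 and 3, and 29.5, 35.3 and 41.6 TPM in mice 1, 2 and 3 labelled knockout (log2 fold change -1.24, standard error 0.22, limma adjusted p 0.140). It passed as lower without mouse 1 (-1.12, limma adjusted p 0.0301), with library weights (limma, adjusted p 0.0297) and with the block (limma, adjusted p 0.0215). Upk1a, the tetraspanin of urothelium related to Upk1b, did not share that pattern. Control values were 55.0 and 27.6 TPM, with 27.7 TPM in mouse 1 and 175 and 256 TPM in mice 2 and 3 of the group labelled knockout. The log2 fold change of Upk1a was 1.45, its standard error 0.88 (limma, adjusted p 0.483), and the value was 2.41 without mouse 1 (limma, adjusted p 0.0222) and with the block (limma, adjusted p 0.0117). Upk2 and Upk3a, the other partners in urothelial plaques and named after their values were seen, were below 5 TPM in every library. Cd44, a hyaluronan receptor that also binds lubricin, had 45.4 and 47.0 TPM for the controls, and 28.4, 44.2 and 44.5 TPM for mice 1, 2 and 3 labelled knockout (log2 fold change -0.26, standard error 0.23, limma adjusted p 0.603).

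Over the whole table, the genes whose centred log2 profile over the 5 libraries was nearest to the mean profile of the 6 members were Jdp2, Gucy1b1, Fn1, Stra6 and Gpm6b. They were taken from 12153 tested genes with a mean TPM of at least 5 and an informative symbol, and their root mean square differences ran from 0.066 for Jdp2 to 0.12 for Gpm6b on the log2 scale. Jdp2, a basic leucine zipper factor of the AP-1 family, had control levels of 57.0 and 47.0 TPM, and 16.8, 22.5 and 24.7 TPM in the libraries labelled knockout mice 1, 2 and 3. Gucy1b1 encodes a subunit of soluble guanylate cyclase, and Stra6 a receptor for retinol uptake. Fn1, the gene of fibronectin, had control levels of 898 and 675 TPM and 262, 440 and 467 TPM in the other group. The measure describes these 5 libraries and carries no test.

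Markers of other cell types were set beside the members. Of 14 oviduct epithelial markers, 13 lay above both controls in each of the libraries labelled knockout mice 2 and 3, whereas in mouse 1 10 lay below both and 0 above. The share of all genes in these positions is not given here, so the counts only describe these markers. Over the 5 libraries the groups overlapped for all 14. The members lay below both controls in all 3, and lowest in mouse 1 for 5 of the 6. Ovgp1, the oviductal glycoprotein of secretory cells, had control values of 2273 and 2463 TPM, and 1522, 10655 and 11258 TPM in mice 1, 2 and 3 labelled knockout. Immune markers summed to 436 and 435 TPM in the controls and to 340, 242 and 136 TPM in mice 1, 2 and 3 of the other group, so they were highest of the 3 in mouse 1, where the members' sum was lowest. The groups did not overlap for 6 of 7 immune and 4 of 8 stromal markers, all lower under the knockout label. Over all genes tested that share was 21.9%. The median log2 fold changes of the 2 lists were -0.90 and -0.51. Lum, a stromal marker named after its values were seen, had -2.01 (limma, adjusted p 0.0978), below every member. Lower values were thus not confined to the members. Markers of granulosa cells, which surround the oocyte in the ovary, summed to 30.0 and 64.6 TPM and to 114, 184 and 210 TPM. Neural and Schwann cell markers, of interest because Gpm6a is also a neuronal gene, summed to 65.4 and 55.8 TPM in the controls and to 51.3, 95.9 and 152 TPM in the libraries labelled knockout mice 1, 2 and 3. The urothelial list, whose sum was mostly Upk1a, gave 64.9 and 39.4 TPM and then 36.0, 184 and 262 TPM. Krt5 and Trp63 in it, named after their values were seen, stayed below 3 TPM. Endothelial markers (between 170 and 254 TPM) and smooth muscle markers (between 344 and 498 TPM) had overlapping group sums. No list was at 0 in any library. The part of these cell types in the members' values was not tested.

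**Figure D4:**
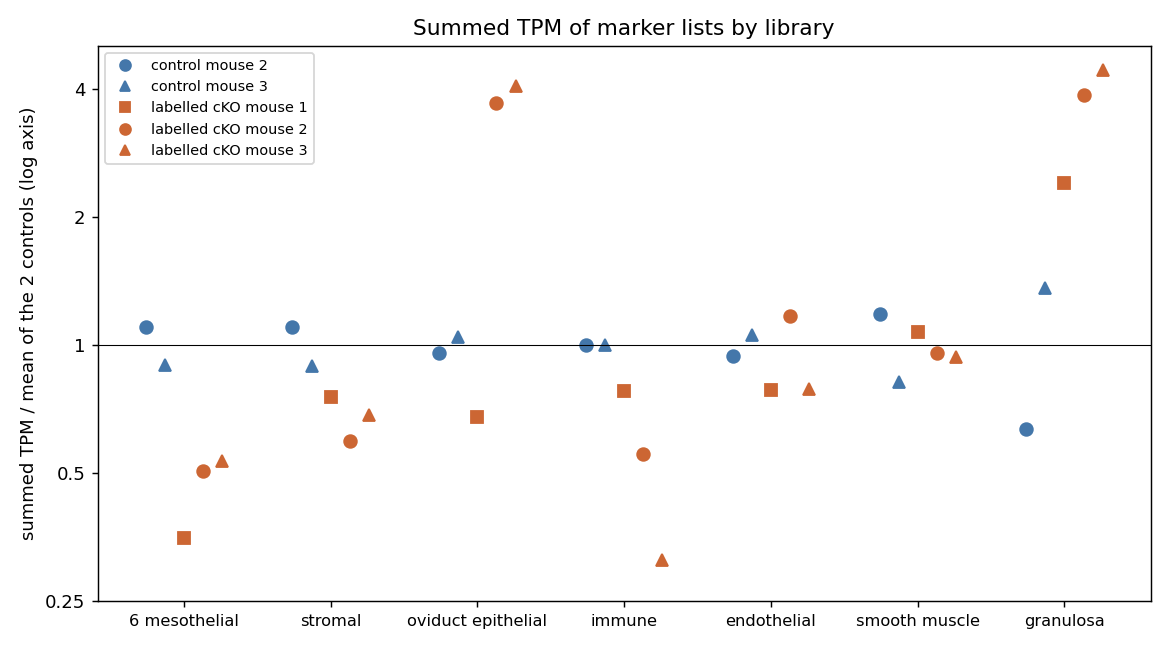
Summed TPM of each marker list divided by the mean of the 2 controls (vertical axis, log scale) in each library, for the 6 mesothelial surface markers and lists of 8 stromal, 14 oviduct epithelial, 7 immune, 7 endothelial, 5 smooth muscle and 5 granulosa genes. Blue points are controls, orange points are libraries labelled knockout ("labelled cKO"), and the shape gives the mouse number. The 6 mesothelial markers are lowest in mouse 1, whereas the epithelial sum is high in mice 2 and 3 only and the immune sum is lowest in mouse 3.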

How the data were processed

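Libraries were made from total RNA of sorted cells with a low-input SMARTer kit, per the labels' protocols. The authors' deposited table gives TPM per gene and its name cites STAR. The build, mm10, is from the submitters' processing notes. The STAR version, counter, annotation and read filters are not given in the sources used here. TPM holds no depth, and a gene with a large share lowers the others: Rpph1 took between 13.1% and 22.3%.

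TPM were converted to log2(TPM + 1). Genes reaching 1 TPM in 2 or more libraries were fitted with limma 3.58.1 in R 4.3.3 (eBayes with a mean-variance trend, genotype as the only term). Adjustment was by Benjamini-Hochberg over all 19292 genes, with a threshold of 0.05, two-sided. The fit was also run on simulated data with independent noise and planted differences. Those data held no deviant library, so they do not show how such a library moves the calls. Fold changes on this scale understate low genes. Each library is 1 mouse. RefSeq held 99.2% of the symbols and all 6 members.

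The members and lists were chosen with earlier results of these data known. Beside the 6 members, Esr1 and Pdgfra, the text names Wt1, Bnc1, Calb2 and Pdpn, the 3 most abundant genes of the mesothelial and relatives lists, abundant genes of the other lists, and the 5 nearest profiles. Other names are marked as chosen after their values were seen. Alternatives changed the pseudocount, filter, scaling and variance model, or added library weights, a replicate block, and leaving out each library.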

Additional observations from a re-analysis of the deposited data

How the results depend on the processing

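The 6 members kept a negative log2 fold change in all 16 alternatives. Of 96 alternative values, 79 stayed on the same side of the threshold, 17 came to pass it and 0 reversed (limma), over a range from -1.62 to -0.63. The members called as lower, 0 in the fit to all libraries, numbered 5 with library weights (all but Gpm6a), where 2.05% of all genes passed as lower, and 6 without the library labelled knockout mouse 1. Over the fits that each left out a library they ranged from 0 to 6, and members called as higher stayed at 0. With a lone control, its spread is assumed to be that of the other group. Adjusted p of single members ran from 0.00772 to 0.872 over the alternatives (limma). The mouse number as a replicate block gave 6 members as lower, and 1165 higher and 693 lower genes (3.59% of all as lower). Mouse 1 has no partner there, so its fold changes equal those without it. Across genes, the correlation of deviations from group means was -0.060 between the libraries numbered 2 and -0.072 between those numbered 3. The deviations of the controls are exact opposites, so these correlations are not independent and cannot show whether the number marks a pair. The libraries are known to share only a number.

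Over all genes, 2 were called higher and 3 lower. A pseudocount of 0.1 gave 0 and 0, as did a minimum mean TPM of 5 (2233 and 1389 genes with an unadjusted p under 0.05). Of higher genes there was 1 without a filter or under robust eBayes, and there were 0 after quantile normalization, after median-of-ratios scaling and in eBayes without trend (2525, 3000 and 2800 genes at that unadjusted p). Without Rpph1 and Rn45s 5 were lower. Library weights gave 260 higher and 396 lower. Leaving out 1 library gave 0 to 1022 higher and 0 to 502 lower, the high values without the library labelled knockout mouse 1. The cause was not tested. At an unadjusted p under 0.05, lower genes were 72.8% of the total, 54.9% after quantile normalization, 57.0% after median-of-ratios scaling and 53.7% with a minimum mean TPM of 5. Higher genes were the majority with library weights, the replicate block and without the library labelled knockout mouse 1, where the lower share was 47.8%, 38.6% and 39.5%. It was 62.4% without control mouse 3 and 85.8% without the library labelled knockout mouse 2. Read depth is unknown, which limits low values such as those of Calb2.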
